A study of Oryza sativa with 36 samples.

Results

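The 9 transcripts followed here belong to genes of starch synthesis and were measured in the roots and shoots of rice plants treated with zaxinone or with a mock solution. They were taken by locus from the count tables. There are 5 loci of ADP-glucose pyrophosphorylase (loc_os08g25734.2, loc_os09g12660.1, loc_os05g50380.1, loc_os03g52460.1 and loc_os01g44220.1), 1 granule-bound starch synthase (GBSSII, loc_os07g22930.2), 1 soluble starch synthase (SSI, loc_os06g06560.1), 1 starch branching enzyme (BEI, loc_os06g51084.1) and 1 plastid phosphorylase (loc_os03g55090.1). These 9 transcripts stand among 33024 in the tables, 1 transcript per locus, and all 9 passed the filter on low counts in every comparison. The tables list the loci os08g25734 and os07g22930 by transcript 2, and the others by transcript 1.

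Plants make starch in plastids. ADP-glucose pyrophosphorylase joins glucose 1-phosphate and ATP into ADP-glucose, the glucosyl donor for starch, and is commonly regarded as the committed step. Starch synthases add that glucose to growing chains, branching enzymes cut and rejoin chains to form the branch points of amylopectin, and the plastid phosphorylase moves glucose reversibly between glucose 1-phosphate and the ends of glucan chains. In leaves starch builds up by day and is used by night, whereas in roots it is best known from the gravity-sensing cells of the root cap.

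Zaxinone is an apocarotenoid, a product of carotenoid cleavage, that promotes the growth of rice. Wild-type Nipponbare plants were grown in hydroponics under a 12 h photoperiod, given 5 µM zaxinone or a mock solution with acetone at 3 weeks of age, and harvested at 2, 6 and 24 h after the application. The nutrient solution contained phosphate, and every sample title carries the label +P. The groups are zaxinone-treated roots, mock-treated roots, zaxinone-treated shoots and mock-treated shoots at each of the 3 times, with 3 libraries in each of the 12 conditions and 36 libraries in all. Time after application and time of day cannot be told apart. By the study's sample list, roots and shoots were prepared as separate sets, so tissue and set cannot be told apart either. Bulk tissue was sequenced, so fewer cells of a type and less RNA per cell cannot be told apart.

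Between 11261992 and 36469854 counts were assigned to transcripts per library, and the 9 transcripts had between 43 and 54487 counts in any library. Levels are given as CPM, a transcript's count scaled to a common library size, with each library total corrected by its TMM factor for differences in RNA composition. CPM is not corrected for transcript length, so levels are compared between samples of one transcript and never between transcripts. The labelled tissues were checked with marker loci: 6 of 6 shoot markers were higher in every shoot library than in every root library, and 3 of 5 root markers were higher in every root library. The library of zaxinone-treated roots at 24 h, replicate 2, had the smallest total and stood apart, with a correlation of log2 CPM of 0.898 to 0.919 with the other root libraries of its time. Differences between zaxinone and mock in roots at 24 h include it, and values without it are given beside those named.

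All 9 transcripts were lower in mock roots than in mock shoots at 2, 6 and 24 h. The granule-bound starch synthase differed most and the branching enzyme and loc_os01g44220.1 least. GBSSII, the isoform of non-storage tissue in rice, had 12.6, 17.0 and 22.6 CPM in mock roots at 2 h, against 2002, 1638 and 1683 CPM in mock shoots. Its lowest shoot library thus stood far above its highest root library. Mock root and mock shoot libraries of 2 h did not overlap for 71.4% of all transcripts. The log2 fold change of mock roots over mock shoots was -6.69 ± 0.21 (SE, edgeR adjusted p = 7.9e-15), a level 103-fold lower in roots, and -6.70 ± 0.22 at 6 h and -6.33 ± 0.21 at 24 h.

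The synthase SSI, which extends short glucan chains, had 7.55, 5.62 and 6.86 CPM in mock roots at 2 h, against 115, 69.0 and 86.6 CPM in mock shoots. It was 13.7-fold lower in roots, with a log2 fold change of -3.77 ± 0.19 (SE). Among the ADP-glucose pyrophosphorylase loci the fold varied widely. At 2 h, loc_os03g52460.1 was 26.5-fold lower in mock roots, loc_os05g50380.1 14.1-fold, loc_os08g25734.2 6.52-fold, loc_os09g12660.1 2.41-fold and loc_os01g44220.1 2.13-fold. The plastid phosphorylase was 4.72-fold lower in mock roots.

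The branching enzyme BEI showed the smallest tissue difference at 2 h. It had 158, 121 and 146 CPM in mock roots, against 180, 183 and 186 CPM in mock shoots, a log2 fold change of -0.39 ± 0.10 (SE, edgeR adjusted p = 0.00132). At 6 h and 24 h its log2 fold change was -0.83 ± 0.10 and -0.77 ± 0.10. At 6 and 24 h the smallest difference was that of loc_os01g44220.1, with 21.3, 25.1 and 22.9 CPM in mock roots at 6 h, against 29.6, 36.5 and 31.5 CPM in mock shoots (log2 fold change -0.50 ± 0.11).

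In edgeR's quasi-likelihood test, 9 of 9 starch synthesis transcripts passed an adjusted p of 0.05 at each time, all lower in mock roots. Calls in either direction made up 72.1% of all transcripts tested at 2 h, 68.1% at 6 h and 69.7% at 24 h. The median log2 fold change of the 9 was -2.70 at 2 h, beside 0.04 over all transcripts. With zaxinone-treated libraries included, the 18 root libraries lay below the 18 shoot libraries for 9 of 9 transcripts, and for 6 of 9 when CPM was set on library totals. Root and shoot libraries did not overlap for 31.7% of all transcripts, and for 33.4% on library totals. The scaling mattered for the smallest differences. With library totals in place of TMM, the median of all transcripts moved to 0.33 at 2 h, and the call was lost for BEI at 2 h (log2 fold change -0.10) and for loc_os01g44220.1 at 6 h (-0.21) and 24 h (-0.22).

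**Figure D1:**
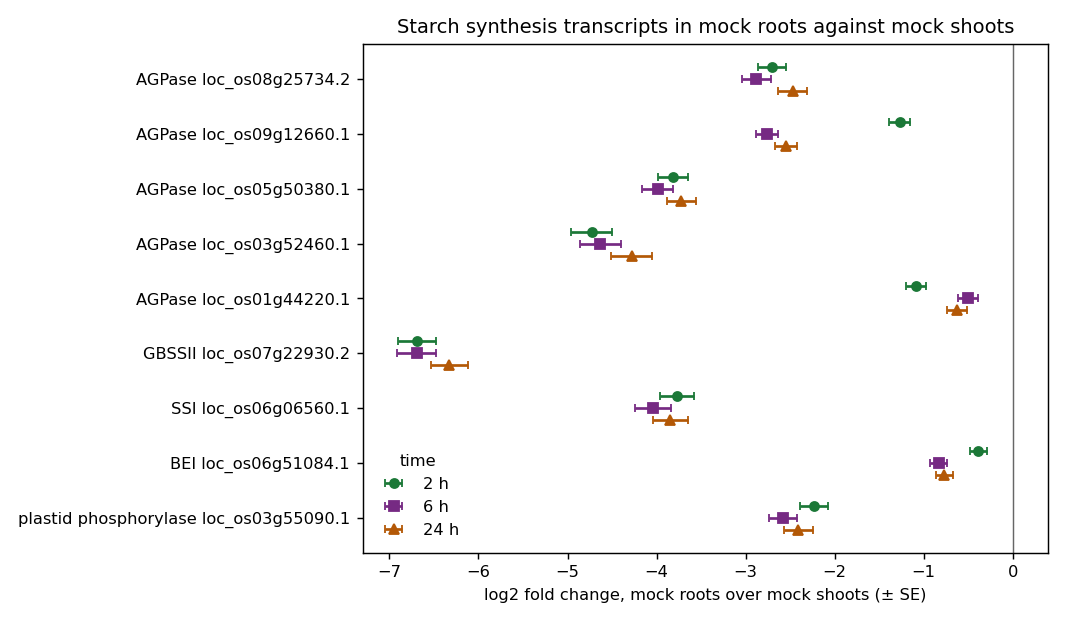
Log2 fold change of mock roots over mock shoots for the 9 starch synthesis transcripts at 2, 6 and 24 h, with the standard error as bars and 3 libraries per group. All points lie left of 0, with GBSSII between -6.33 and -6.70 and BEI at -0.39 at 2 h. AGPase stands for ADP-glucose pyrophosphorylase.

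The levels in single libraries are shown by condition for each transcript. Over the 18 root libraries, loc_os08g25734.2 ranged from 28.8 to 78.1 CPM with a median of 53.6, and over the 18 shoot libraries from 273 to 413 CPM with a median of 364. For loc_os03g52460.1 the root libraries ranged from 4.48 to 17.9 CPM around a median of 10.1, and the shoot libraries from 219 to 314 CPM around a median of 246. Its replicates spread widely in zaxinone-treated roots at 2 h, with 4.48, 17.9 and 6.99 CPM.

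**Figure D2:**
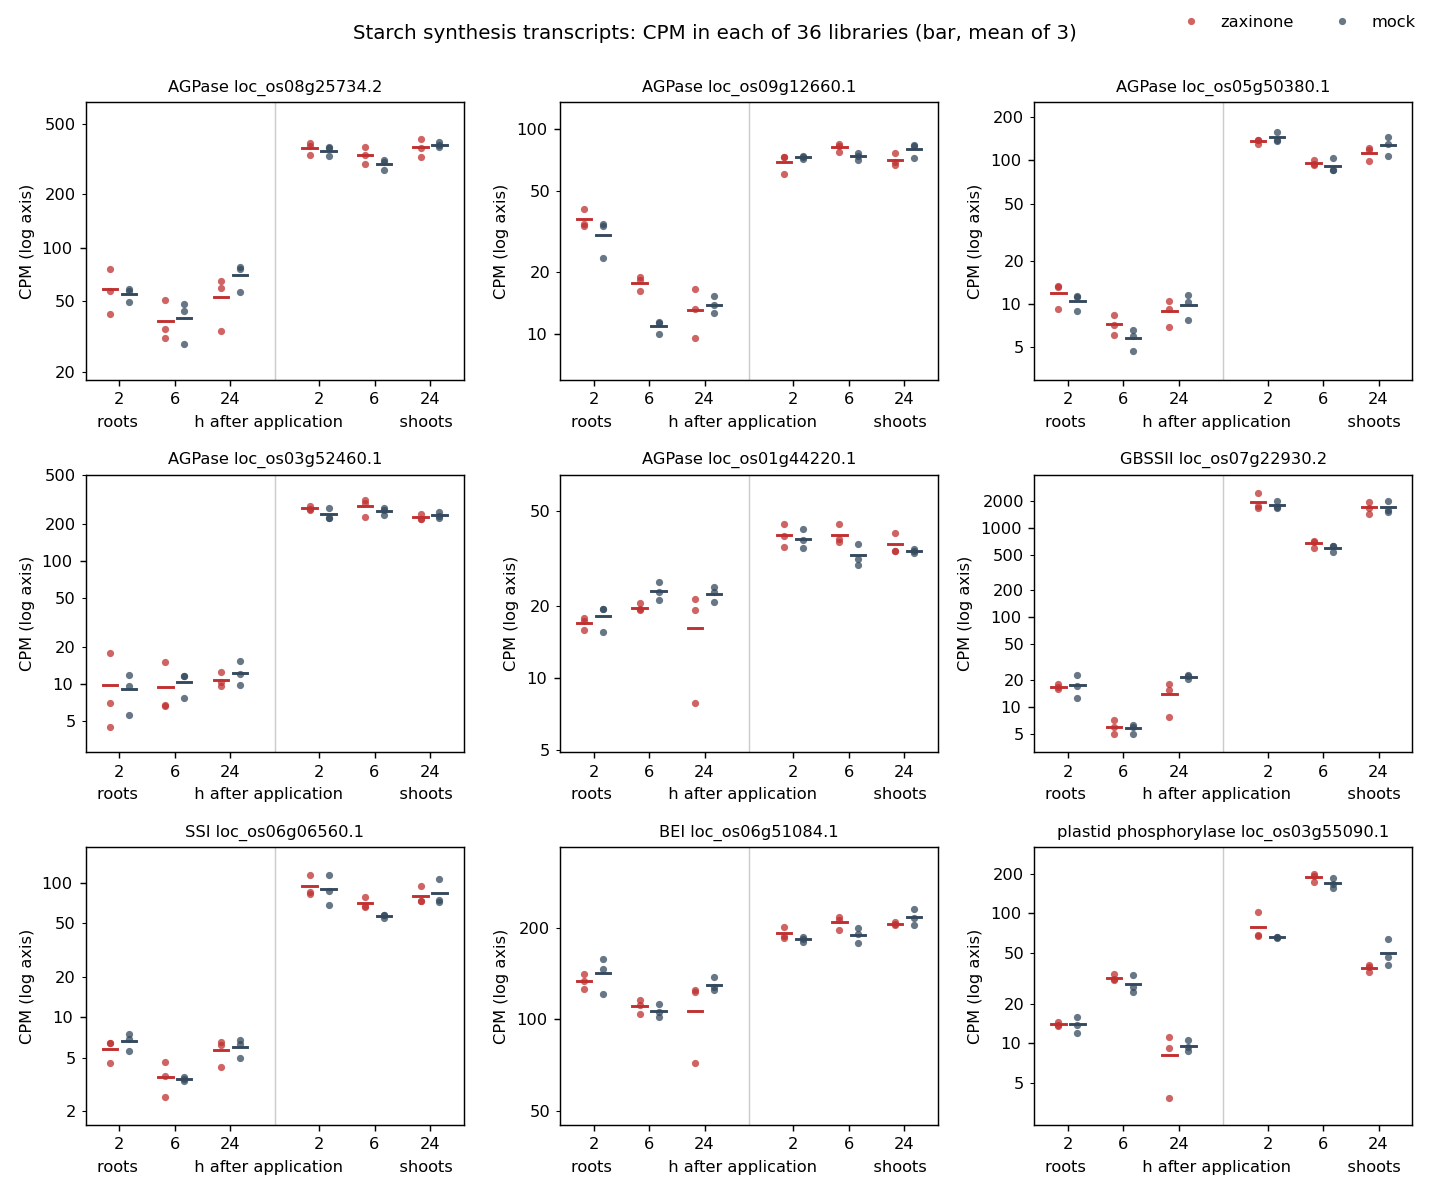
CPM of each starch synthesis transcript in the 36 libraries on a log axis, by tissue and by hours after application, with zaxinone-treated libraries left of mock-treated ones; points are single libraries and bars are means of 3. In each panel the root libraries lie below the shoot libraries, and for all 9 transcripts the lowest of the 6 root libraries of 24 h is replicate 2 of the zaxinone-treated group.

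In mock roots, most of the 9 transcripts were lower at 6 h than at 2 h, while the phosphorylase was higher. GBSSII had 5.99, 4.96 and 6.30 CPM at 6 h, against 12.6, 17.0 and 22.6 CPM at 2 h. The highest library at 6 h was below the lowest at 2 h, and the log2 fold change was -1.60 ± 0.18 (SE, edgeR adjusted p = 6.87e-06). Mock root libraries of 6 h and 2 h did not overlap for 36.3% of all transcripts. At 24 h GBSSII had 20.2, 21.8 and 22.7 CPM, a log2 fold change of 1.91 ± 0.18 over 6 h, and the difference between 24 h and 2 h was not called (0.31 ± 0.17, edgeR adjusted p = 0.196). That value was 0.12 without replicate 1 of 2 h, and without replicate 3 of 2 h it was 0.54 and called (edgeR adjusted p = 0.0226).

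The pyrophosphorylase transcript loc_os09g12660.1 had 10.02, 11.4 and 11.3 CPM in mock roots at 6 h, against 23.6, 33.4 and 34.5 CPM at 2 h (log2 fold change -1.49 ± 0.12, edgeR adjusted p = 1.99e-07). It stayed low at 24 h, with 15.3, 12.7 and 13.8 CPM, and was 2.18-fold lower than at 2 h (log2 fold change -1.13 ± 0.12, edgeR adjusted p = 2.58e-06). It was the one pyrophosphorylase transcript called lower at both later times in mock roots.

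The other transcripts called lower in mock roots at 6 h than at 2 h were SSI (log2 fold change -0.95 ± 0.20), loc_os05g50380.1 (-0.85 ± 0.17), loc_os08g25734.2 (-0.44 ± 0.15) and BEI (-0.41 ± 0.10). SSI had 3.58, 3.37 and 3.45 CPM at 6 h, against 7.55, 5.62 and 6.86 CPM at 2 h, without overlap, as for 36.3% of all transcripts. The call for loc_os08g25734.2 was lost with the replicate number as a block (edgeR adjusted p = 0.0607), with library totals (0.0682), in a single fit of all 36 libraries (0.143) and without replicate 1 or 2 of mock roots at 2 h or replicate 2 at 6 h. The transcript loc_os01g44220.1 went the other way, with 21.3, 25.1 and 22.9 CPM at 6 h, against 19.4, 19.5 and 15.5 CPM at 2 h (log2 fold change 0.34 ± 0.11, edgeR adjusted p = 0.0279), a call that was lost in the fit of all 36 libraries (edgeR adjusted p = 0.197) and without replicate 3 of 2 h or replicate 2 or 3 of 6 h.

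The plastid phosphorylase had 24.7, 27.3 and 33.7 CPM in mock roots at 6 h, against 16.1, 12.0 and 13.9 CPM at 2 h. It was 2.04-fold higher at 6 h (log2 fold change 1.03 ± 0.15, edgeR adjusted p = 0.000104). At 24 h it had 10.6, 8.79 and 9.37 CPM, below every library of the 2 earlier times. Mock root libraries did not overlap for 31.4% of all transcripts between 24 h and 2 h, and for 44.2% between 24 h and 6 h. The log2 fold change of 24 h over 6 h was -1.57 ± 0.16, and that of 24 h over 2 h was -0.54 ± 0.16 (edgeR adjusted p = 0.0179). The call at 24 h over 2 h was lost in the fit of all 36 libraries (edgeR adjusted p = 0.0730) and without replicate 1 of 2 h (0.0837), replicate 2 of 24 h (0.0682) or replicate 3 of 24 h (0.0559).

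In mock roots, 8 of 9 transcripts were called between 6 h and 2 h, 2 of them higher at 6 h and 6 lower, where 29.6% of all transcripts were called; with 1 library left out in turn, 6 to 8 of 9 were called. Between 24 h and 2 h, 3 of 9 were called, 1 higher at 24 h and 2 lower, beside 27.6% of all transcripts, and 2 of 9 by DESeq2. The higher one was loc_os01g44220.1, with a log2 fold change of 0.31. Its call was lost in DESeq2 (adjusted p = 0.0575), with 3 of 6 libraries left out in turn and in 3 other edgeR settings. These were the size factors of DESeq2 (edgeR adjusted p = 0.0620), no filter (0.0598) and all 36 libraries in one fit (0.266). Between 24 h and 6 h, 7 of 9 were called, 6 higher at 24 h and 1 lower, beside 28.4%. Those of loc_os09g12660.1 (0.36 ± 0.12) and BEI (0.29 ± 0.10) at 24 h over 6 h were the weakest, and with 1 library left out in turn 5 or 6 of 9 were called. The 3 comparisons share libraries in pairs. The count between 24 h and 2 h fell to 1 of 9 in a single fit of all 36 libraries and without replicate 2 of mock roots at 24 h. The transcript loc_os03g52460.1 was called in none of the 3 comparisons by edgeR with all libraries.

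In mock shoots, GBSSII and the plastid phosphorylase had the largest changes between 6 h and the other times. GBSSII had 629, 624 and 534 CPM at 6 h, against 2002, 1638 and 1683 CPM at 2 h, and it was 3.01-fold lower at 6 h (log2 fold change -1.59 ± 0.17, edgeR adjusted p = 2.86e-06). At 24 h it had 1503, 1580 and 1993 CPM, a log2 fold change of 1.54 ± 0.17 over 6 h. The plastid phosphorylase had 187, 156 and 167 CPM at 6 h, against 64.3, 65.8 and 65.7 CPM at 2 h, and was 2.58-fold higher at 6 h (log2 fold change 1.37 ± 0.15). At 24 h it had 46.1, 40.1 and 63.6 CPM, which was 3.33-fold lower than at 6 h (edgeR adjusted p = 5.78e-08).

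SSI and loc_os05g50380.1 were lower in mock shoots at 6 h as well, with log2 fold changes over 2 h of -0.68 ± 0.17 and -0.68 ± 0.15. SSI had 57.6, 57.9 and 55.4 CPM at 6 h, against 115, 69.0 and 86.6 CPM at 2 h, and loc_os05g50380.1 had 105, 85.9 and 85.0 CPM, against 137, 159 and 139 CPM. In both, the libraries of the 2 times did not overlap, which was true of 39.2% of all transcripts. At 24 h both were called higher than at 6 h, with log2 fold changes of 0.61 ± 0.17 and 0.51 ± 0.15. Without replicate 1 of mock shoots at 2 h the SSI call at 6 h was lost (log2 fold change -0.47, edgeR adjusted p = 0.0776).

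In mock shoots, 4 of 9 transcripts were called between 6 h and 2 h, 1 higher at 6 h and 3 lower, beside 15% of all transcripts. None of the 9 was called between 24 h and 2 h by edgeR, beside 14.1%, and 1 of 9 was called by DESeq2. There 2 of 9 had an unadjusted p under 0.05, beside 27.5% of all transcripts. Between 24 h and 6 h, 4 of 9 were called, 3 higher at 24 h and 1 lower, beside 31.1%. DESeq2 called 6 of 9 there, adding loc_os08g25734.2 and BEI. Without replicate 3 of mock shoots at 24 h the count was 2 of 9, the calls of SSI and loc_os05g50380.1 being lost, and that of loc_os05g50380.1 was also lost without replicate 2 or 3 at 6 h and with library totals (0.35, edgeR adjusted p = 0.0895).

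**Figure D3:**
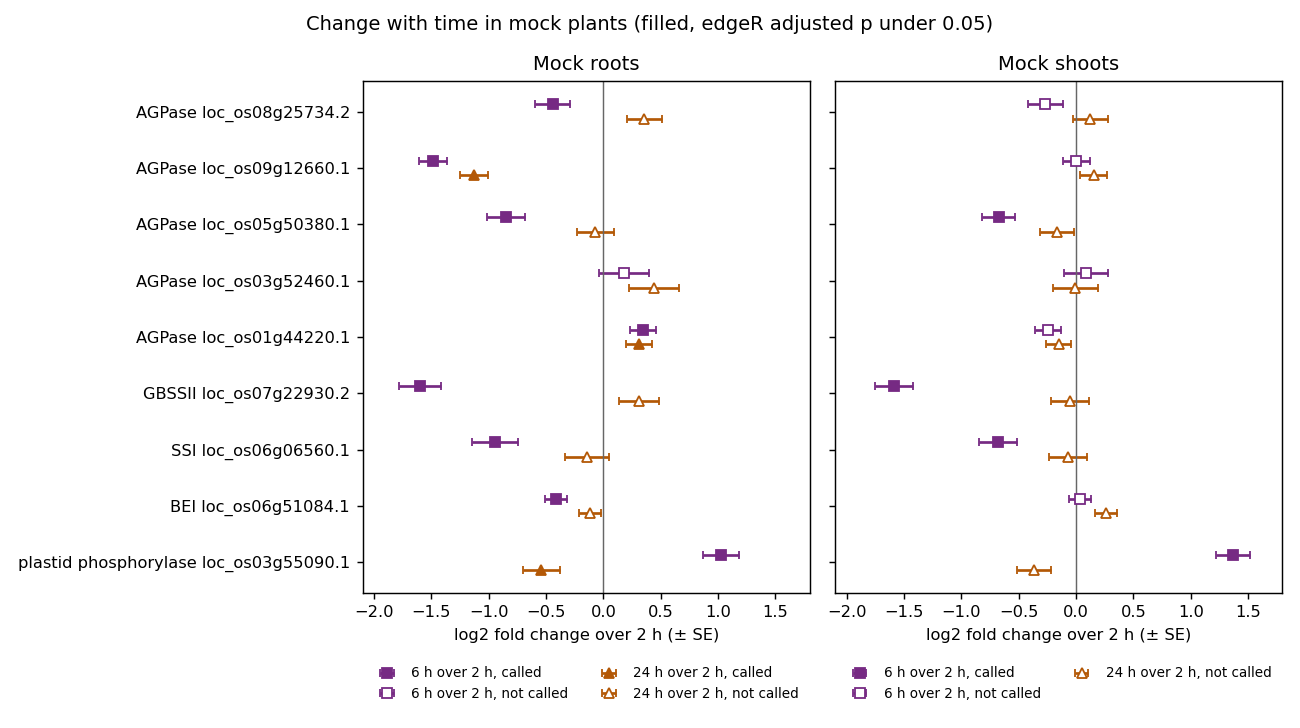
Log2 fold change over 2 h in mock roots (left) and mock shoots (right) at 6 and 24 h, with standard errors as bars; filled symbols had an edgeR adjusted p under 0.05. GBSSII lies at -1.60 in roots and -1.59 in shoots at 6 h and the plastid phosphorylase at 1.03 and 1.37, whereas loc_os09g12660.1 lies at -1.49 in roots and is not called in shoots.

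GBSSII and the plastid phosphorylase also stood apart at 6 h when the zaxinone-treated libraries were included. With both treatments together, the phosphorylase ranged from 24.7 to 34.0 CPM in the 6 root libraries of 6 h, against 12.0 to 16.1 CPM at 2 h and 3.80 to 11.2 CPM at 24 h, where the lowest value is that of the library that stood apart. It ranged from 156 to 201 CPM in the 6 shoot libraries of 6 h, against 64.3 to 102 CPM at 2 h and 35.6 to 63.6 CPM at 24 h. GBSSII ranged from 4.96 to 7.11 CPM in the roots of 6 h, against 12.6 to 22.6 CPM at 2 h and 7.77 to 22.7 CPM at 24 h. The lowest GBSSII value of 24 h is again that of the library that stood apart. No library of 6 h overlapped those of the other times for either transcript in either tissue. Of all transcripts, 19.8% did not overlap between 6 h and 2 h and 16.2% between 6 h and 24 h in roots, and 21.4% and 30% in shoots.

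Whether the change with time differed between the tissues was tested as an interaction in the 18 mock libraries. For loc_os09g12660.1 the change at 6 h over 2 h differed by a log2 fold change of -1.49 ± 0.17 (root minus shoot, edgeR adjusted p = 2.56e-05). In mock shoots this transcript had 76.1, 74.2 and 70.5 CPM at 6 h, against 73.5, 72.7 and 71.8 CPM at 2 h, so that the roots fell while the shoots overlapped. The difference for 24 h over 2 h was -1.28 ± 0.17 (edgeR adjusted p = 5.05e-05), in comparisons that share the libraries of 2 h.

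For GBSSII, in contrast, the interaction at 6 h over 2 h was -0.01 ± 0.22 and not called, and for the phosphorylase -0.34 ± 0.21 (edgeR adjusted p = 0.316). Neither value shows that the tissues changed alike, given standard errors of this size. The standard error for GBSSII was itself uncertain, at 0.25 in DESeq2 and 0.51 in edgeR with no filter. The transcript loc_os01g44220.1 differed by 0.59 ± 0.16 (edgeR adjusted p = 0.0204) and BEI by -0.44 ± 0.14 (edgeR adjusted p = 0.0376) at 6 h over 2 h, and loc_os01g44220.1 by 0.46 ± 0.16 (edgeR adjusted p = 0.0469) at 24 h over 2 h. With each of 12 libraries left out in turn, the call of loc_os01g44220.1 was lost 3 times at 6 h over 2 h and 8 times at 24 h over 2 h, and that of BEI 9 times. The BEI call was also lost with the replicate block (edgeR adjusted p = 0.0686), no filter (0.0543), the size factors of DESeq2 (0.0510) and all 36 libraries in one fit (0.132). All 36 libraries in one fit also ended both calls of loc_os01g44220.1 (0.204 and 0.256), and its call at 24 h over 2 h was lost with no filter (0.0600) and with the size factors of DESeq2 (0.0596).

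Of the 9 transcripts, 3 were called in the interaction of tissue and time at 6 h over 2 h, beside 12.7% of all transcripts, 2 at 24 h over 2 h, beside 19.4%, and none at 24 h over 6 h, beside 15%. In the last comparison, neither edgeR nor DESeq2 called any of the 9, and 0 of 9 had an unadjusted p under 0.05, beside 27.5% of all transcripts.

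Zaxinone-treated libraries were then set against mock-treated ones of the same tissue and harvest. Of the 54 values for the 9 transcripts, 1 was called, the rise of the pyrophosphorylase transcript loc_os09g12660.1 in roots at 6 h. It had 18.3, 18.9 and 16.2 CPM (584, 470 and 547 counts) in zaxinone-treated roots, against 10.02, 11.4 and 11.3 CPM (274, 322 and 392 counts) in mock-treated roots. All 3 zaxinone-treated libraries lay above all 3 mock-treated ones, and the groups did not overlap for 22.3% of all transcripts in this comparison. The transcript was 1.67-fold higher upon zaxinone treatment (log2 fold change 0.74 ± 0.11, SE, n = 3 each, edgeR adjusted p = 0.0158).

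The size of this difference was steady, and its call was not. The log2 fold change lay between 0.68 and 0.79 with each of the 6 libraries left out in turn, and the call was lost without mock replicate 1 (edgeR adjusted p = 0.0881), without mock replicate 3 (0.0589) and without zaxinone replicate 2 (0.0786). In a single fit of all 18 root libraries, which shares one estimate of spread over the 3 times, the log2 fold change was 0.74 ± 0.20 with an edgeR adjusted p of 0.308. DESeq2 gave 0.74 ± 0.14 with an adjusted p of 5.68e-06, and the other alternatives in edgeR gave adjusted p between 0.00962 and 0.0161.

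At the other times the transcript showed no called difference in roots. At 2 h it had 33.5, 40.8 and 34.2 CPM in zaxinone-treated roots, against 23.6, 33.4 and 34.5 CPM in mock-treated roots (log2 fold change 0.27 ± 0.18, edgeR adjusted p = 0.849). At 24 h it had 16.5, 9.54 and 13.1 CPM, against 15.3, 12.7 and 13.8 CPM (log2 fold change -0.09 ± 0.28, edgeR adjusted p = 0.885). Without replicate 2 of zaxinone-treated roots, that log2 fold change was 0.12 ± 0.16 and not called. The groups overlapped at both times. In the interaction test, the difference between its zaxinone effects at 6 h and 2 h was 0.49 ± 0.27 and not called, and that between 24 h and 6 h was -0.83 ± 0.28 (edgeR adjusted p = 0.475), and -0.66 and still not called without replicate 2 of zaxinone-treated roots at 24 h.

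In shoots at 6 h, loc_os09g12660.1 had 84.4, 82.5 and 76.9 CPM upon zaxinone treatment, against 76.1, 74.2 and 70.5 CPM in mock (log2 fold change 0.14 ± 0.08, edgeR adjusted p = 0.492). The interaction of zaxinone and tissue at 6 h was 0.56 ± 0.12 for this transcript (root minus shoot), which missed the threshold in edgeR (adjusted p = 0.0855) and passed it in DESeq2 (adjusted p = 0.00757).

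**Figure D4:**
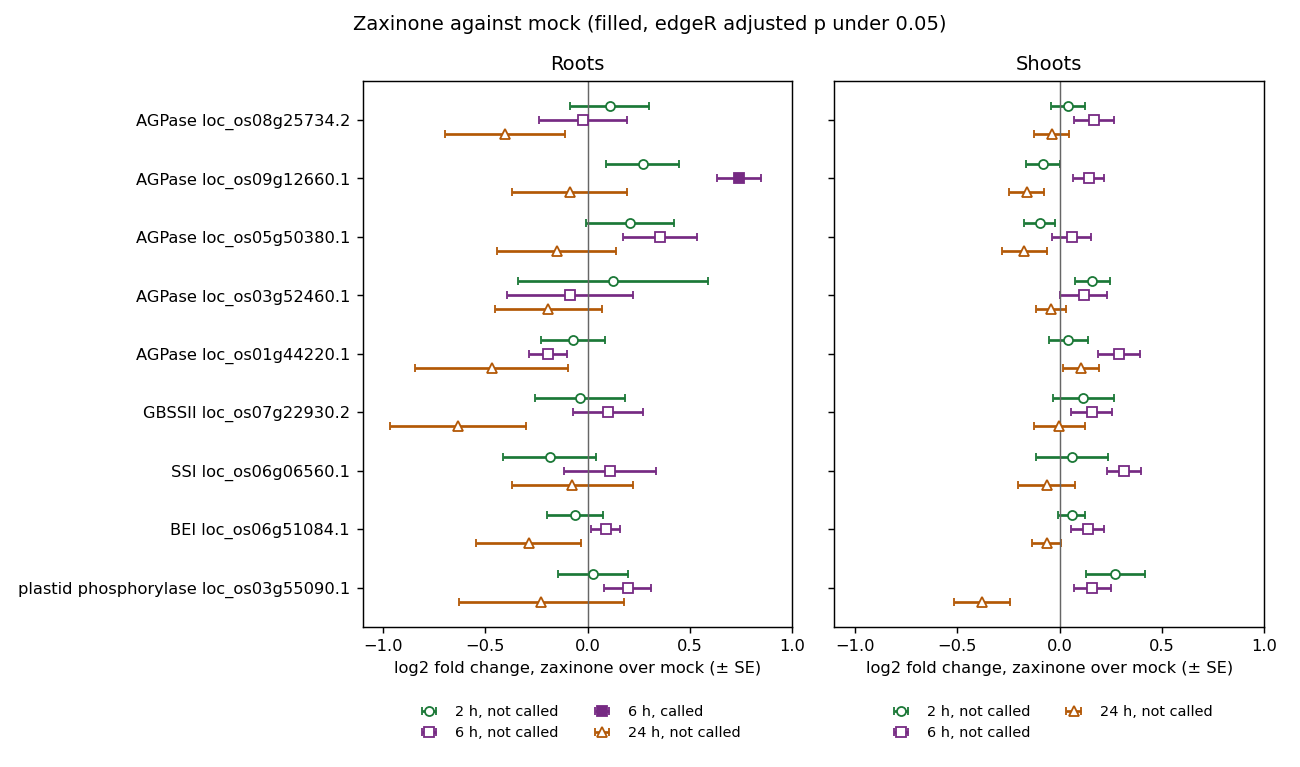
Log2 fold change of zaxinone over mock in roots (left) and shoots (right) at 2, 6 and 24 h for the 9 starch synthesis transcripts, with standard errors as bars and 3 libraries per group; the filled symbol had an edgeR adjusted p under 0.05. It is loc_os09g12660.1 in roots at 6 h, at 0.74, and the bars are widest in roots at 24 h.

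In roots at 6 h, 1 of 9 transcripts was called, beside 1.61% of all transcripts. The other 8 had log2 fold changes from -0.19 to 0.35. The lowest was that of loc_os01g44220.1, with 20.5, 19.4 and 19.2 CPM in zaxinone-treated roots, against 21.3, 25.1 and 22.9 CPM in mock-treated roots (-0.19 ± 0.09, edgeR adjusted p = 0.346). Its groups did not overlap, which was true of 22.3% of all transcripts in this comparison.

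In roots at 2 h, none of the 9 transcripts was called by edgeR, beside 0.636% of all transcripts, and none by DESeq2. None had an unadjusted p under 0.05, beside 7.65% of all transcripts. Their log2 fold changes ran from -0.19 for SSI to 0.27 for loc_os09g12660.1, with 5 of 9 positive. GBSSII had 15.6, 17.97 and 16.7 CPM in zaxinone-treated roots, against 12.6, 17.0 and 22.6 CPM in mock-treated roots.

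In roots at 24 h, none of the 9 was called by edgeR, beside 0.00423% of all transcripts, and none by DESeq2. None had an unadjusted p under 0.05, beside 8.46% of all transcripts. All 9 log2 fold changes were negative, from -0.64 for GBSSII to -0.08 for SSI. GBSSII had 15.5, 7.77 and 18.1 CPM in zaxinone-treated roots, against 20.2, 21.8 and 22.7 CPM in mock-treated roots (-0.64 ± 0.33, edgeR adjusted p = 0.586). Its groups did not overlap, which was true of 20.4% of all transcripts in this comparison. Replicate 2 of the zaxinone-treated roots, the library that stood apart, was the lowest of the 6 libraries for 9 of 9 transcripts, and for 40.1% of all transcripts. Without it, 4 of 9 log2 fold changes were positive, with SSI at 0.11, and the median of the 9 was -0.05 in place of -0.23. GBSSII stood at -0.33 ± 0.13 without it (edgeR adjusted p = 0.330), while 0.855% of all transcripts were called. Its unadjusted edgeR p was then 0.0298, and GBSSII was the 1 of 9 under 0.05.

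In shoots at 2 h, none of the 9 was called by edgeR, beside 0% of all transcripts (950 of 23281 at an unadjusted p under 0.05, and 1 called by DESeq2). The highest log2 fold change was that of the plastid phosphorylase, with 68.6, 102 and 66.5 CPM upon zaxinone treatment, against 64.3, 65.8 and 65.7 CPM in mock (0.27 ± 0.14, edgeR adjusted p = 0.995). Without replicate 2 of the zaxinone-treated shoots the value was 0.04.

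In shoots at 6 h, none of the 9 was called by edgeR, beside 0.00433% of all transcripts, and none by DESeq2. All 9 log2 fold changes were positive, from 0.06 for loc_os05g50380.1 to 0.32 for SSI, with a median of 0.16 beside -0.0043 over all transcripts, and 2 of 9 had an unadjusted p under 0.05, beside 11.8% of all transcripts. SSI had 66.8, 67.0 and 78.7 CPM upon zaxinone treatment, against 57.6, 57.9 and 55.4 CPM in mock (0.32 ± 0.08, edgeR adjusted p = 0.284). The groups did not overlap for SSI, loc_os01g44220.1 and loc_os09g12660.1, which was true of 16.5% of all transcripts.

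In shoots at 24 h, none of the 9 was called by edgeR, beside 0% of all transcripts (901 of 22786 at an unadjusted p under 0.05, and 3 called by DESeq2). The plastid phosphorylase had 35.6, 40.02 and 38.7 CPM upon zaxinone treatment, against 46.1, 40.13 and 63.6 CPM in mock (log2 fold change -0.38 ± 0.14, not called), the 1 of 9 with an unadjusted p under 0.05. The groups did not overlap, which was true of 8.83% of all transcripts, but the highest zaxinone-treated library and the lowest mock-treated one were nearly level. Without mock replicate 3 the value was -0.17.

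No starch synthesis transcript was called in the tests of whether the effect of zaxinone differed between tissues or times in edgeR. Between roots and shoots, calls made up 0.206% of all transcripts for 2 h, 0.0545% for 6 h and 0.0157% for 24 h. Of the 9 transcripts, 0, 2 and 0 had an unadjusted p under 0.05 at 2, 6 and 24 h, beside 6.29%, 13.6% and 6.77% of all transcripts. In the tests that compare roots at 24 h, none of the 9 was called with replicate 2 of zaxinone-treated roots at 24 h left out either. DESeq2 called 1 of 9 at 6 h, the transcript loc_os09g12660.1 named above. Between times in roots, 0.00401% of all transcripts were called for 6 h against 2 h, 0.016% for 24 h against 2 h and 0.00801% for 24 h against 6 h. In these root tests DESeq2 called 30, 209 and 68 transcripts in the same order, and none of the 9. Of the 9, 0, 0 and 1 had an unadjusted p under 0.05 in edgeR, beside 4.54%, 9.67% and 9.36% of all transcripts. Between times in shoots the share was 0% in each of the 3 comparisons. There DESeq2 called 0, 0 and 19 transcripts for 6 h against 2 h, 24 h against 2 h and 24 h against 6 h, and none of the 9. In the same order, 0, 1 and 3 of the 9 had an unadjusted p under 0.05, beside 6.45%, 3.14% and 9.93% of all transcripts.

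A pair of further lists of loci places the 9 transcripts in their pathway, 17 other loci of starch synthesis and 18 loci of starch degradation. The identifiers of these lists are not paired with gene names in the files, so they are counted and not named. Zaxinone against mock gave no call in either list at any time in roots or shoots. Beside this, the called share of all transcripts was 0.636% (2 h), 1.61% (6 h) and 0.00423% (24 h) for roots. For shoots it was 0%, 0.00433% and 0%, by the same order of harvests. Shares this low leave little room for a call among so few loci. The absence of calls therefore cannot set the starch pathway apart from other transcripts. Between mock roots and mock shoots at 2 h, 15 of the 17 synthesis loci were tested, with 4 called higher in roots and 10 lower, and 17 of the 18 degradation loci, with 1 higher and 13 lower, beside 37.2% of all transcripts higher and 34.9% lower.

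In mock roots at 6 h against 2 h, no synthesis locus was called higher and 2 were called lower, and among the degradation loci none was higher and 6 were lower, beside 13.9% of all transcripts higher and 15.7% lower. In mock shoots at 24 h against 6 h, 7 synthesis loci were higher and 2 lower, and 10 degradation loci were higher and 3 lower, beside 16.1% higher and 15.1% lower.

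As a description, each transcript was set beside the other members and the 2 lists, 40 transcripts in all, by Pearson's r of log2 CPM over the 12 condition means. SSI and loc_os05g50380.1 were most alike each other (r = 0.998), and loc_os08g25734.2 was most like SSI (r = 0.996). GBSSII was most like a locus of the synthesis list (r = 0.996), loc_os03g52460.1 likewise (r = 0.996), BEI was most like a locus of the degradation list (r = 0.991), and the plastid phosphorylase likewise (r = 0.973). The lowest of these values were those of loc_os09g12660.1 (r = 0.963) and loc_os01g44220.1 (r = 0.945). The transcript least like each member was also a locus of the synthesis list, with r from -0.898 for BEI to -0.982 for loc_os03g52460.1. The 12 means share the split between roots and shoots, which raises the size of r, positive or negative, for any 2 transcripts that differ between the tissues. Within the 6 root means, GBSSII and loc_os08g25734.2 had r = 0.975, and GBSSII and the phosphorylase had r = -0.831. Without the library that stood apart these were 0.973 and -0.969.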

How the data were processed

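Counts came from 36 libraries of roots and shoots, in 6 tables. The authors trimmed reads with Trimmomatic, aligned them with HISAT2 to the rice genome (Phytozome, v7.0) and used HTSeq for counting. The deposited values are raw counts per transcript, without normalization, of transcripts with at least 2 counts in a table. The tables also hold the authors' log2 fold changes and p-values of zaxinone against mock, which were not used. The members and lists of loci were chosen with earlier results of these data known. Members were matched by locus, 2 of them to transcript 2.

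The main test was edgeR 4.0.16 in R 4.3.3 (TMM, filterByExpr, glmQLFit and glmQLFTest, Benjamini-Hochberg adjustment over all transcripts, threshold 0.05). The standard errors given with edgeR values are not part of its output. Each is the size of the log2 fold change over the square root of its F statistic, and is unreliable near a fold change of 0. Zaxinone was compared with mock in the 6 libraries of a tissue and time; tissues and times in the 18 mock libraries; differences between effects as interactions. Every member is named, the lists are counted. The interaction of tissue and time in mock plants was added after the data were seen. Alternatives were DESeq2 1.42.0, its size factors in edgeR, library totals, no filter, at least 10 counts in every library, a block for the replicate number, one fit of all libraries, and each library left out in turn. The functions were tested on simulated data. Replicates are called biological by the study; p-values measure the spread between these libraries. Replicate numbers were not taken to pair libraries in the main test. Of 18 same-numbered mock and zaxinone pairs, 5 had deviations correlated over 0.1 (median r 0.067), which does not exclude pairing. With the block, 203 transcripts were called for zaxinone in roots at 2 h, in place of 150. Libraries of one condition differed by more than sampling noise (chi-square per degree of freedom of at least 5.25). A table that pairs these loci with names, sequences or coordinates was not used here.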

Additional observations from a re-analysis of the deposited data

Results flagged for a closer look

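The change with time in mock plants differed between roots and shoots, by the interaction test in edgeR, for 3 starch synthesis transcripts. At 6 h over 2 h, 3 of 9 were called, beside 12.7% of all transcripts, and at 24 h over 2 h 2 of 9, beside 19.4%. The test was added after the data were seen. The pyrophosphorylase transcript loc_os09g12660.1 differed by a log2 fold change of -1.49 ± 0.17 at 6 h over 2 h (SE, root minus shoot, edgeR adjusted p = 2.56e-05) and by -1.28 ± 0.17 at 24 h over 2 h (edgeR adjusted p = 5.05e-05). The transcript loc_os01g44220.1 differed by 0.59 ± 0.16 at 6 h over 2 h (edgeR adjusted p = 0.0204) and by 0.46 ± 0.16 at 24 h over 2 h (edgeR adjusted p = 0.0469). BEI, loc_os06g51084.1, differed by -0.44 ± 0.14 at 6 h over 2 h (edgeR adjusted p = 0.0376). With each of 12 libraries left out in turn, loc_os09g12660.1 kept both calls, loc_os01g44220.1 lost its call 3 times at 6 h over 2 h and 8 times at 24 h over 2 h, and BEI lost its call 9 times. With all 36 libraries in one fit, loc_os01g44220.1 lost its calls at 6 h (edgeR adjusted p = 0.204) and 24 h (0.256), and BEI lost its call (0.132). The values at 6 h and 24 h share the libraries of 2 h.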

How the results depend on the processing

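All 27 tissue values kept their direction under every alternative run, and 3 lost their call, each with library totals. Of the 26 called changes with time in mock plants, none changed sign, 9 lost the call with a library left out and 7 under another setting. Of 53 uncalled values of zaxinone against mock, 22 changed sign with a library left out and 2 under another setting. The number of starch synthesis transcripts called moved by over 1.5 times in these cases: for zaxinone in roots at 6 h it was 0 with all 18 root libraries in one fit and 0 to 1 with a library left out; in mock roots at 24 h against 2 h it was 1 with all 36 libraries in one fit and 1 to 3 with a library left out; in mock shoots at 24 h against 2 h it was 1 in DESeq2 and 0 to 1 with a library left out, and at 24 h against 6 h 2 to 4; for the zaxinone effect in roots against shoots at 6 h it was 1 in DESeq2; for the mock time effect in roots against shoots it was 1 with all 36 libraries and 1 to 3 with a library left out at 6 h against 2 h, and 1 with all 36 libraries, 1 with no filter and 1 to 3 with a library left out at 24 h against 2 h. Smaller moves with a library left out were 6 to 8 in mock roots at 6 h against 2 h, 5 to 6 at 24 h against 6 h, and 3 to 4 in mock shoots at 6 h against 2 h, and DESeq2 called 6 in mock shoots at 24 h against 6 h.

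The near-zero mock time effect of loc_os07g22930.2 at 6 h against 2 h turned positive in DESeq2 (0.011), with its size factors in edgeR (0.012), with no filter (0.0015), with at least 10 counts (0.0073) and with the replicate block (0.010), and ran from -0.19 to 0.23 with a library left out. Zaxinone against mock ran from -0.31 to 0.12 for loc_os09g12660.1 and from -0.21 to 0.11 for loc_os06g06560.1 in roots at 24 h, and from -0.13 to 0.00031 for loc_os09g12660.1 in shoots at 2 h. The cause of these moves was not tested.

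Over all transcripts, edgeR and DESeq2 called 150 and 467 for zaxinone in roots at 2 h, 384 and 1152 at 6 h and 1 and 421 at 24 h, and 0 and 1, 1 and 158, and 0 and 3 in shoots at 2, 6 and 24 h. With a library left out edgeR called 62 to 190, 75 to 661 and 0 to 204 in roots and 0 to 1, 1 to 570 and 0 to 1 in shoots, and with all 18 libraries of the tissue in one fit 22 in roots at 6 h and 505 at 24 h. Same-numbered mock and zaxinone libraries had deviations with r of -0.21 to 0.26. The replicate block gave 563 transcripts for zaxinone in roots at 6 h, with loc_os09g12660.1 at 0.74 (edgeR adjusted p = 0.0161), and 7, 6 and 2 starch synthesis transcripts in mock roots at 6 h against 2 h and 24 h against 6 h and in the mock time effect at 6 h against 2 h. For the tissue comparison a block within each tissue could not be fitted, and a block across tissues was used.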
